A study of Homo sapiens with 9 samples.

Results

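The expression of 45 cyclins, cyclin-dependent kinases (CDKs), CDK inhibitors and their closest regulators was measured in hTERT_RPE1 cells, an epithelial line of human retinal pigment epithelium immortalised with telomerase. The members were taken by symbol from the table of gene counts, as the cyclins, the CDKs, their inhibitors other than CDKN1A, the pocket proteins, the CDC25 phosphatases, WEE1, SKP2 and the CKS subunits. All 45 were found among 26475 symbols, and all 45 were among the 13784 genes that had enough counts to be tested.

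The study asked how loss of PIP4K2B, a kinase that phosphorylates the lipid PtdIns5P, and growth on a soft substrate change gene expression. 9 libraries were sequenced, 3 for each of 3 conditions, all from 1 cell line collected 24 h after seeding on fibronectin. Control cells carried a vector without a PIP4K2B hairpin and grew on glass. The labels name that vector both as an empty pLKO_1 and as a control shRNA, so its insert is not settled. The cells of sh_PIP4K2B grew on glass too, and each of the 3 libraries carried another hairpin against PIP4K2B (#1, #2 and #3), so that a hairpin and its library cannot be told apart. Soft cells carried the same vector as Control and grew on a gel of 2.3 kPa. The sources do not say whether libraries of a condition came from separate cultures, and p-values here measure only the spread between these libraries.

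Cyclins are regulatory subunits that are made and destroyed in turn through the cell cycle, and each activates particular CDKs. D-type cyclins with CDK4 and CDK6, and then cyclin E with CDK2, phosphorylate the pocket proteins RB1, RBL1 and RBL2 and so release E2F-driven transcription for entry into S phase, while cyclin A with CDK2 and cyclin B with CDK1 carry cells through S phase and mitosis. CIP/KIP and INK4 proteins inhibit these kinases, WEE1 and the CDC25 phosphatases add and remove inhibitory phosphates, and further cyclins and CDKs act in transcription and splicing.

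Library totals ran from 19217336 to 24020796 counts. PIP4K2B itself was at 123, 124 and 119.5 CPM (counts relative to the library total, scaled by TMM) in Control, 48.4, 40.9 and 36.6 with hairpins #1 to #3 and 119, 122 and 127 in Soft, so each hairpin library had less of the transcript than every other library (log2 fold change -1.54 ± 0.12 SE, edgeR adjusted p = 0.00038). The median SD of log2 CPM over all genes tested was 0.328 among the sh_PIP4K2B libraries, against 0.0771 in Control and 0.0711 in Soft. Of 15 markers of pigment epithelium, 8 had too few counts for the test, with 2 counts of RPE65 and 1 of TYR over the 9 libraries and none of DCT or TTR. Among the other 7, MITF was at 24.4 to 39.3 CPM over the libraries, OTX2 at 10.3 to 39.4 and RDH5 at 2.22 to 22.1. The summed level of the 15 ran from 1991 to 2143 CPM in Control, 758 to 1168 in sh_PIP4K2B and 971 to 1020 in Soft, and most of it came from the keratins KRT8 and KRT18. Its part in the results was not tested.

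With the PIP4K2B hairpins, the 8 cyclins and kinases of the G1/S transition, S phase and mitosis all fell, each hairpin library lying below every Control library, and the inhibitor CDKN1B (p27) rose. At an adjusted p below 0.01 (edgeR quasi-likelihood test, Benjamini-Hochberg over all genes tested), 14 of the 45 members passed, which is 31.1%, against 5.54% of all genes. Of these, 11 fell (2.77% of all genes did) and 3 rose (2.76% of all genes did). The 11 were CCNE1, CCNE2, CCNA2, CDK2, CCNB1, CCNB2, CCNF, CDK1, CDC25C, CDKN3 and RBL1, and the 3 were CDK6, WEE1 and CDKN1B. The median log2 fold change of the 45 members was -0.09, beside 0.05 over all genes tested. The 3 hairpin libraries did not overlap the 3 Control libraries for 32 members, where 34.1% of all genes were separated in that way. In bulk RNA, fewer cells in a phase and less RNA per cell cannot be told apart.

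These calls rested on every Control library and also on the Soft libraries in the fit. Without Control replicate 1, 2 or 3, edgeR called 1 member (CCNE2), 0 and 1 (CDKN1B), beside 0.872%, 0.471% and 1.15% of all genes tested. In these fits 29, 28 and 29 members had an unadjusted p below 0.05. Without Soft replicate 1, 2 or 3 edgeR called 9, 9 and 8, beside 2.37%, 2.42% and 2.24% of all genes tested. Leaving out hairpin #1, #2 or #3 raised the count to 19, 21 and 17, beside 11.9%, 14.4% and 12.7% of all genes tested. Fitting only sh_PIP4K2B and Control gave 0 calls (27 members at an unadjusted p below 0.05), beside 0.0375% of all genes tested. Limma voom with a weight per condition gave 6 and DESeq2 gave 24, beside 2.31% and 15% of all genes tested. No call changed direction under any of these settings.

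On the soft gel, 6 of the 9 cyclins and kinases of G1 and the G1/S step fell and 4 of the 6 CIP/KIP and INK4 inhibitors rose, while of the 4 mitotic members only CDK1 passed the test. Past the threshold were 22 of the 45 members, 48.9%, against 30.6% of all genes. 14 fell, against 14.8% of all genes, and 8 rose, against 15.8% of all genes. The 14 were CCND1, CCND3, CDK6, CCNE1, CCNE2, CDK2, CDK1, CDC25A, RB1, RBL1, CCNC, CCNH, CDK12 and CCNG1, and the 8 were CDC25B, CDKN1B, CDKN1C, CDKN2A, CDKN2C, RBL2, CCNG2 and CCNI. The median log2 fold change of the members was -0.20, beside 0.01 over all genes. The Soft libraries did not overlap Control for 43 members, but 79.4% of all genes did not either. Scaling by library size alone gave 11 higher and 11 lower, beside 28.7% of all genes past the threshold. It moved the median of all genes by 0.11 on the log2 scale. A fit of only Soft and Control called 42 members and limma voom 41, beside 70.7% and 70% of all genes tested.

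**Figure D1:**
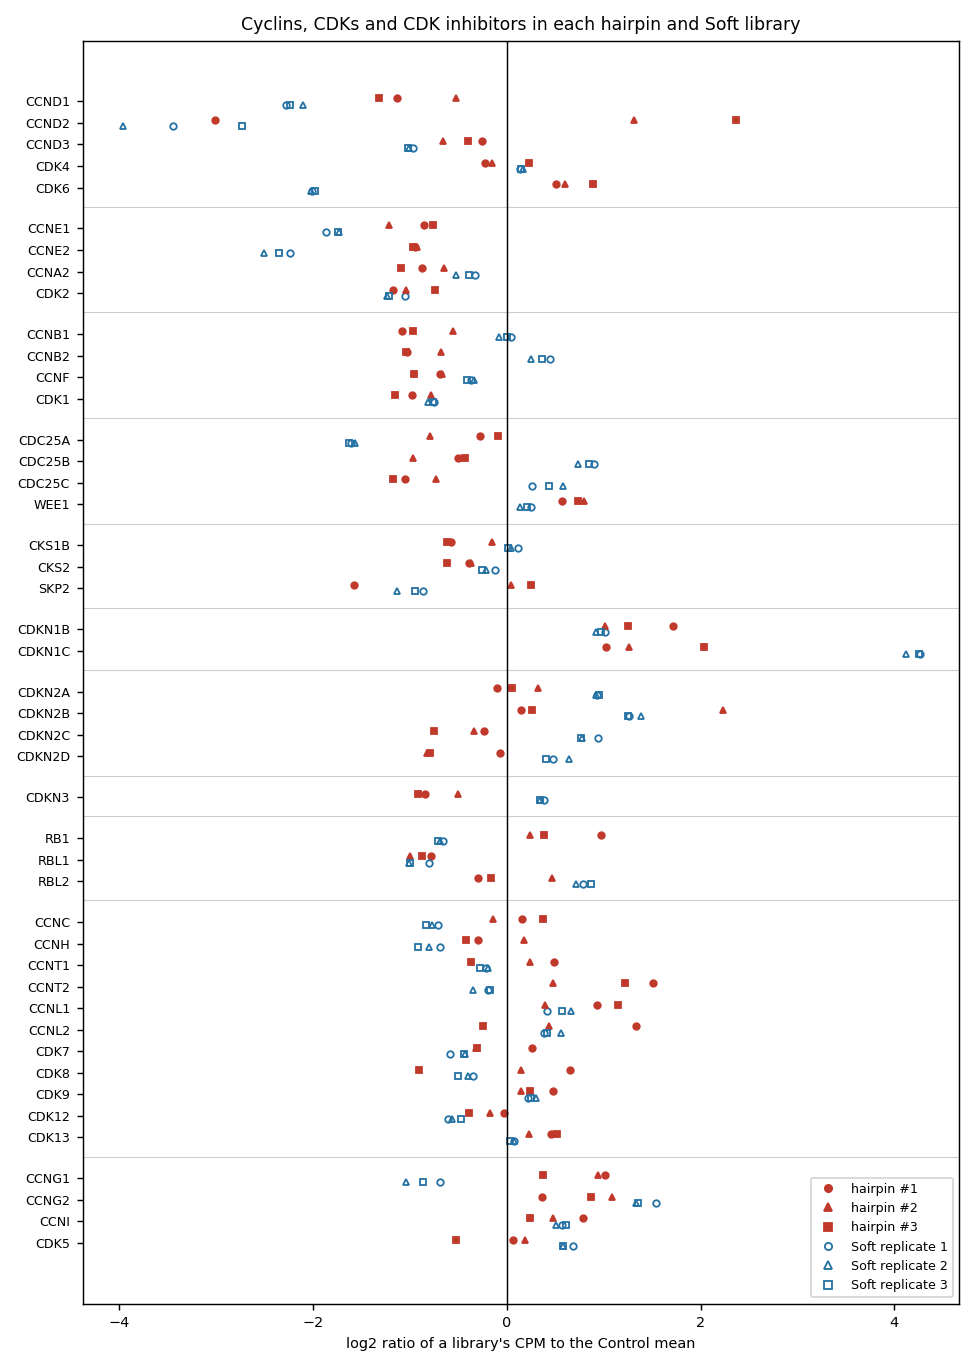
Log2 ratio of each library's TMM-scaled CPM to the mean of the 3 Control libraries (x axis) for the 45 members (y axis, grouped by role), with filled red symbols for hairpins #1 to #3 and open blue symbols for Soft replicates 1 to 3. The Soft libraries of a member lie close together while the hairpins spread, with a median ratio of the highest to the lowest library of 1.44 between hairpins and 1.10 between Soft libraries.

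The plot of every member by library shows the spread within each condition. Of the 45 members, 20 were below the Control mean with all 3 hairpins, 13 were above it with all 3 and 12 were split between hairpins. In Soft, 23 were below in all 3 libraries, 21 above and 1 split. These counts were not made over all genes, so they are not read as particular to the members. Libraries did not overlap Control for 34.1% of all genes with the hairpins and 79.4% in Soft. More than 2-fold between the highest and the lowest hairpin was seen for 7 members, for CCND2 between Soft libraries and for CDKN1C between Control libraries. Over all genes tested, 29.6% exceeded 2-fold between hairpins.

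The D-type cyclins and their kinases start the path through G1. CCND1 (cyclin D1), the most abundant member, was at 2359, 2354 and 2418 CPM in the Control libraries, 1086, 1653 and 953 with hairpins #1, #2 and #3 and 489, 554 and 504 in Soft. The 3 conditions did not overlap, with Control highest and Soft lowest. In Soft CCND1 fell to 0.217 times the Control level (log2 fold change -2.20 ± 0.20 SE, edgeR adjusted p = 5e-05), and with the hairpins the difference just missed the threshold (log2 fold change -0.95 ± 0.19 SE, edgeR adjusted p = 0.0118). Soft was also lower than sh_PIP4K2B (log2 fold change -1.26 ± 0.20 SE, edgeR adjusted p = 0.000823).

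CCND3 (cyclin D3) had the same order at a lower level, with 96.1, 96.7 and 93.1 CPM in Control, 79.9, 60.2 and 72.4 with the hairpins and 48.7, 47.3 and 46.98 in Soft. It fell in Soft (log2 fold change -1.0003 ± 0.11 SE, edgeR adjusted p = 0.000148), and with the hairpins the log2 fold change was -0.43 ± 0.11 (adjusted p = 0.0316). CCND2 (cyclin D2) had few counts and the widest range between hairpins of all members. It had 33, 31 and 36 counts in the Control libraries, 4, 77 and 155 with hairpins #1 to #3 and 3, 2 and 5 in Soft, a 41.6-fold range between hairpins in CPM. Hairpin #1 lay below Control and the other hairpins above it, and 14.4% of the 75-base stretches of its transcript also occur in another annotated gene. CCND2 passed neither comparison against Control (adjusted p = 0.273 for the hairpins and 0.0382 for Soft).

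CDK6, a catalytic partner of the D-type cyclins, moved in opposite directions in the conditions. Its level was 115, 115 and 133 CPM in Control, 172, 183 and 225 with the hairpins and 30.1, 29.8 and 30.6 in Soft. The hairpin libraries were all above Control and the Soft libraries were all below it, with no overlap. CDK6 rose with the hairpins (log2 fold change 0.67 ± 0.12 SE, edgeR adjusted p = 0.00727) and fell in Soft to 0.249 times the Control level (log2 fold change -2.0043 ± 0.13 SE, edgeR adjusted p = 9.81e-06). The hairpin call was kept in 8 of 17 other settings. It was lost, among others, when any 1 Control or Soft library was left out and with only the 2 conditions compared (adjusted p up to 0.0546). The difference between Soft and sh_PIP4K2B was -2.68 ± 0.13 on the log2 scale (adjusted p = 3.32e-06). Its paralog CDK4 was at 130.3 ± 4.51 CPM (SD, n = 3) in Control, 127 ± 21.99 with the hairpins and 144 ± 1.27 in Soft and passed no comparison. TSPAN31, on the opposite strand, overlaps 57.8% of the CDK4 exons, and the sources do not say how strand was used in counting. Smaller overlaps of this kind, from 9.22% to 20.4% of the exons, touch CCND1, CCNA2, CDK2, CCNF, RBL2, CCNC and CCNH.

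**Figure D2:**
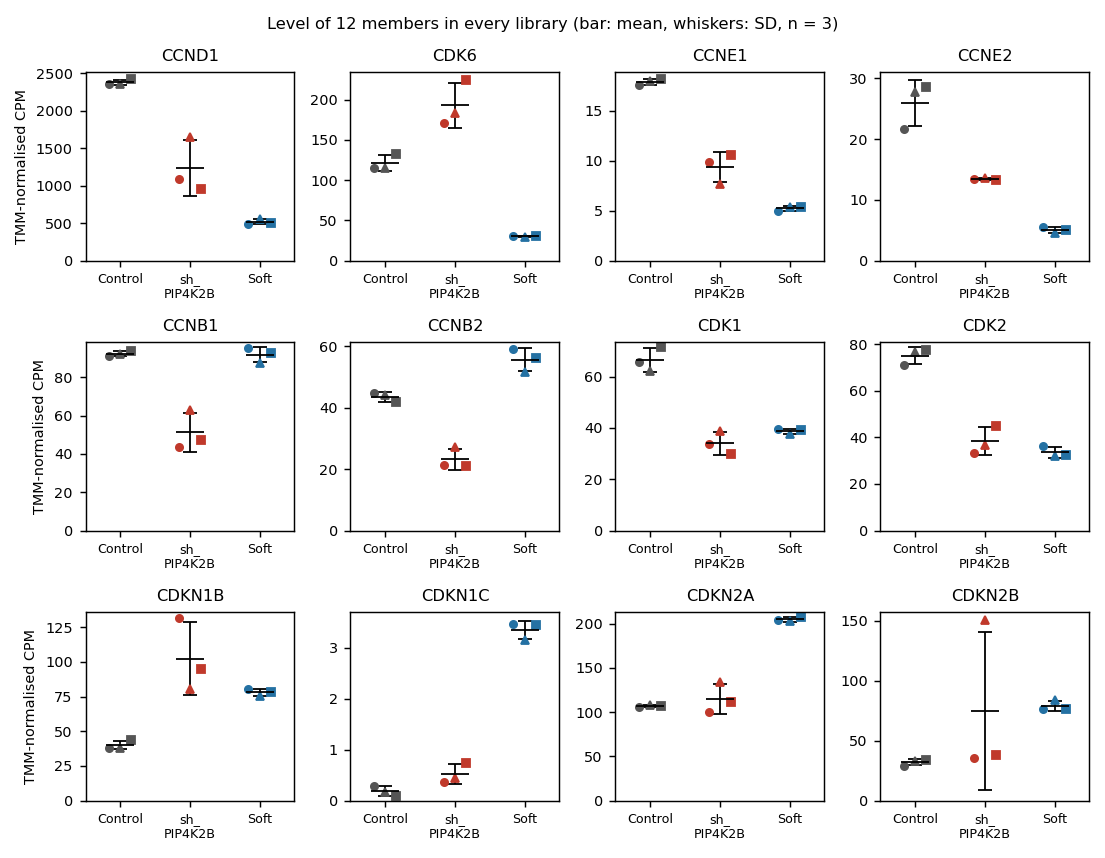
TMM-scaled CPM (y axis, linear and from 0) of 12 members in the 9 libraries, with circle, triangle and square for replicate or hairpin 1, 2 and 3, a bar for the mean and whiskers for the SD of the 3 libraries. CCNE1, CCNE2 and CCND1 step down from Control to sh_PIP4K2B to Soft, CCNB1 and CCNB2 are low only in the sh_PIP4K2B libraries among the conditions measured, and CDKN2B is high in 1 of the 3 hairpin libraries.

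Cyclin E activates CDK2 at the start of S phase, and both cyclin E genes stepped down through the conditions. CCNE1 was at 17.6, 17.95 and 18.2 CPM in Control, 9.9, 7.71 and 10.6 with the hairpins and 4.92, 5.38 and 5.36 in Soft. CCNE2 was at 21.6, 27.7 and 28.6 CPM in Control, 13.4, 13.6 and 13.2 with the hairpins and 5.52, 4.57 and 5.1 in Soft. For both genes no library of one condition overlapped another condition, and the CCNE2 libraries of the 3 hairpins differed by a factor of only 1.03. CCNE1 fell with the hairpins (log2 fold change -0.93 ± 0.14 SE, edgeR adjusted p = 0.00313) and in Soft (log2 fold change -1.78 ± 0.14 SE, edgeR adjusted p = 2.6e-05). CCNE2 likewise fell in sh_PIP4K2B (log2 fold change -0.95 ± 0.14 SE, edgeR adjusted p = 0.00272) and further in Soft, to 0.195 times the Control level (log2 fold change -2.36 ± 0.15 SE, edgeR adjusted p = 8.76e-06). Soft was lower than sh_PIP4K2B for CCNE1 (-0.85 ± 0.14, adjusted p = 0.00131) and for CCNE2 (-1.41 ± 0.14, adjusted p = 0.000102). Exons of genes on the other strand, among them INTS8, overlap 57.1% of the CCNE2 exons.

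CDK2, the kinase of cyclins E and A, was at 71.01, 76.7 and 77.5 CPM in Control, 33.3, 36.6 and 45.03 with the hairpins and 36.3, 31.95 and 32.4 in Soft. Both conditions lay below every Control library and overlapped each other. CDK2 fell in sh_PIP4K2B (log2 fold change -0.97 ± 0.13 SE, edgeR adjusted p = 0.00177) and in Soft (log2 fold change -1.16 ± 0.13 SE, edgeR adjusted p = 0.000125), and the log2 difference between them was -0.19 ± 0.13 (adjusted p = 0.245). CCNA2 (cyclin A2), which acts with CDK2 in S phase, was at 59.6, 68.3 and 70.7 CPM in Control, 36.01, 42.2 and 30.9 with the hairpins and 52.8, 45.95 and 50.6 in Soft. It was lowest with the hairpins, where it fell (log2 fold change -0.86 ± 0.13 SE, edgeR adjusted p = 0.00367), and intermediate in Soft, where the difference did not pass (log2 fold change -0.41 ± 0.13 SE, edgeR adjusted p = 0.0294). The 4 members of this step were thus all lower with the hairpins, and 3 of 4 passed in Soft.

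Cyclin B and CDK1 drive entry into mitosis, and their promoters belong to a class with CCAAT boxes, bound by the factor NF-Y, and a cell cycle homology region (CHR), bound by the DREAM and MuvB complexes. RefSeq promoters (250 bases before to 50 after a start site, GRCh38.p14) were available for 39 of the 45 members, as 59 promoters. The letters searched on both strands were CCAAT for the CCAAT box, TTTGAA or TTCGAA for the CHR, and TTTCCCGC, TTTCGCGC, TTTGCCGC or TTTGGCGC for an E2F site, and no base was shared between hits of different motifs. Of the 59 promoters 44.1% held CCAAT, 22% the CHR letters and 6.78% the E2F letters, beside 34.6%, 16.4% and 3.31% of 35116 promoters of all genes. Stretches upstream of the start sites of the 4 mitotic members are printed because these genes had the same direction with the hairpins, and capitals mark CCAAT (or its reverse complement) and the CHR letters. They lie at chr5:69167015-69167134, chr15:59105006-59105125, chr16:2429274-2429393 and chr10:60778151-60778330, all on the plus strand:
CCNB1: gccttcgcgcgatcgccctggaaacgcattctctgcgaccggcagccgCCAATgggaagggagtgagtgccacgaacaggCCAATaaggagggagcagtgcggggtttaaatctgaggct
CCNB2: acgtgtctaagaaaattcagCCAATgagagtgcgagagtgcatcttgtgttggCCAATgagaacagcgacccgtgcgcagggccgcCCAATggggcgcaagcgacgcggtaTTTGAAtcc
CCNF: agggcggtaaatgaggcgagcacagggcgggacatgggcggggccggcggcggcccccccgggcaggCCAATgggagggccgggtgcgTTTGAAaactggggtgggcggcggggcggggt
CDK1: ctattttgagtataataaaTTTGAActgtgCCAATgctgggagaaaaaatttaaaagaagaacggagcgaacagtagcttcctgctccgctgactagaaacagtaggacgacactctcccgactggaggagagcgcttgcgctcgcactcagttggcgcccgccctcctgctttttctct
The stretch of CCNB2 held 3 CCAAT boxes followed by 1 CHR match close to the start site, those of CCNF and CDK1 held 1 of each, and that of CCNB1 held 2 CCAAT boxes and none of the CHR letters searched. The CDK1 stretch is 180 bases long and the others 120, and its matches lie farther out, at -161 (CHR) and -150 (CCAAT) from the start site. Another CDK1 promoter, at chr10:60778228-60778527, held CHR, CCAAT and E2F matches and is not printed. A match is a description of the letters and not a measured site.

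All 4 mitotic members fell with the hairpins, and in Soft only CDK1 of the 4 passed. CCNB1 (cyclin B1) was at 90.9, 92.3 and 93.6 CPM in Control, 43.7, 62.8 and 47.2 with hairpins #1 to #3 and 95.1, 87.4 and 92.7 in Soft. The hairpin libraries were all below the others, and Soft overlapped Control. CCNB1 fell in sh_PIP4K2B (log2 fold change -0.85 ± 0.14 SE, edgeR adjusted p = 0.00414) and differed by -0.01 ± 0.13 on the log2 scale in Soft (adjusted p = 0.963). CCNB2 (cyclin B2) was at 44.8, 44.2 and 41.8 CPM in Control, 21.4, 27.2 and 21.2 with the hairpins and 59.3, 51.8 and 56.1 in Soft. Here Soft lay above Control in every library while the hairpins lay below it. CCNB2 fell with the hairpins (log2 fold change -0.91 ± 0.12 SE, edgeR adjusted p = 0.00202), and the Soft difference did not pass (log2 fold change 0.35 ± 0.12 SE, edgeR adjusted p = 0.0373). Soft exceeded sh_PIP4K2B by 0.84 ± 0.14 on the log2 scale for CCNB1 (adjusted p = 0.00101) and by 1.26 ± 0.12 for CCNB2 (adjusted p = 8.53e-05).

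CDK1, the kinase of the B-type cyclins, fell in both conditions. It was at 65.6, 62.1 and 71.4 CPM in Control, 33.7, 38.7 and 29.8 with the hairpins and 39.4, 37.6 and 39.2 in Soft, and both conditions lay below Control and overlapped each other. CDK1 fell in sh_PIP4K2B (log2 fold change -0.96 ± 0.12 SE, edgeR adjusted p = 0.00135) and in Soft (log2 fold change -0.78 ± 0.12 SE, edgeR adjusted p = 0.000662). CCNF (cyclin F), an F-box protein that targets proteins for degradation in G2, was at 49.5, 47.9 and 44.9 CPM in Control, 29.5, 29.9 and 24.5 with the hairpins and 36.8, 37.6 and 35.7 in Soft. It fell with the hairpins (log2 fold change -0.76 ± 0.11 SE, edgeR adjusted p = 0.00257), and in Soft all libraries were below Control without passing the threshold (log2 fold change -0.37 ± 0.11 SE, edgeR adjusted p = 0.0194).

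The CDC25 phosphatases activate CDKs by removing inhibitory phosphates, and in Soft CDC25A fell, CDC25B rose and CDC25C did not pass. The stretch before the CDC25A start site (chr3:48188418-48188537, minus strand, printed 5′ to 3′) is shown with CCAAT on either strand and an E2F match in capitals:
CDC25A: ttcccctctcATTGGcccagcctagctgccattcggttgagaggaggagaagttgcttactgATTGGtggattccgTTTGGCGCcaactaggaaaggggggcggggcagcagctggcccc
CDC25A, which acts at the start of S phase, was at 35.7, 35.1 and 33.7 CPM in Control, 28.7, 20.04 and 32.6 with the hairpins and 11.4, 11.7 and 11.2 in Soft. Soft was far below both other conditions (log2 fold change -1.60 ± 0.17 SE, edgeR adjusted p = 9.37e-05), while the hairpin difference did not pass (adjusted p = 0.152). CDC25B, which acts in G2, was at 77.02, 74.3 and 75.4 CPM in Control, 53.5, 38.6 and 55.9 with the hairpins and 141, 125 and 136 in Soft. It rose in Soft (log2 fold change 0.83 ± 0.14 SE, edgeR adjusted p = 0.00118), and the hairpin libraries were all below Control with a difference that did not pass (log2 fold change -0.62 ± 0.14 SE, edgeR adjusted p = 0.0173).

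CDC25C, which activates CDK1 at mitosis, was at 9.31, 8.03 and 7.78 CPM in Control, 4.05, 5.06 and 3.71 with the hairpins and 10.03, 12.5 and 11.4 in Soft. It fell with the hairpins (log2 fold change -0.97 ± 0.17 SE, edgeR adjusted p = 0.00559) and differed by 0.43 ± 0.16 on the log2 scale in Soft (adjusted p = 0.0498). WEE1, the kinase that opposes CDC25, was at 29.1, 29.1 and 30.5 CPM in Control, 44.02, 51.2 and 49.1 with the hairpins and 35.2, 32.6 and 34.1 in Soft. The hairpin libraries were the highest and close to each other, and WEE1 rose in sh_PIP4K2B (log2 fold change 0.70 ± 0.10 SE, edgeR adjusted p = 0.00243) and not past the threshold in Soft (adjusted p = 0.125). All 4 genes of this group differed between Soft and sh_PIP4K2B, with log2 differences of -1.24 ± 0.17 for CDC25A, 1.44 ± 0.14 for CDC25B, 1.40 ± 0.17 for CDC25C and -0.50 ± 0.10 for WEE1 (adjusted p from 8.28e-05 to 0.00291).

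The small CKS subunits, which help cyclin-CDK complexes bind substrates, and SKP2, the F-box protein that targets CDKN1B for degradation, passed neither comparison against Control. CKS1B and CKS2 had log2 fold changes of -0.43 ± 0.13 and -0.46 ± 0.10 with the hairpins and of 0.05 ± 0.13 and -0.20 ± 0.10 in Soft. Of the 75-base stretches of the CKS1B transcript, 22% also occur in other annotated genes, most often CKS1BP3. SKP2 was at 19.7, 22.2 and 22.3 CPM in Control, 7.18, 22.1 and 25.4 with hairpins #1 to #3 and 11.8, 9.76 and 11.1 in Soft. Hairpin #1 alone was below the Control libraries while #2 and #3 were within or above them, and Soft was below Control in every library (log2 fold change -0.98 ± 0.37, adjusted p = 0.052).

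Of the CIP/KIP inhibitors, CDKN1B (p27), which binds cyclin E-CDK2 and cyclin D complexes, was at 38.1, 38.2 and 43.3 CPM in Control, 131, 80.2 and 95.2 with hairpins #1 to #3 and 80.3, 75.5 and 78.05 in Soft. Every hairpin and Soft library exceeded every Control library, and hairpin #1 was the highest. CDKN1B rose 2.56-fold with the hairpins (log2 fold change 1.36 ± 0.17 SE, edgeR adjusted p = 0.00145) and 1.96-fold in Soft (log2 fold change 0.97 ± 0.17 SE, edgeR adjusted p = 0.0014), the one member that rose in both. Soft and sh_PIP4K2B overlapped (log2 difference -0.39 ± 0.17, adjusted p = 0.0798).

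CDKN1C (p57), a product of an imprinted gene, was close to the detection limit outside Soft. It had 6, 4 and 2 counts in the Control libraries, 8, 9 and 15 with the hairpins and 76, 66 and 77 in Soft. These equal 0.0874 to 0.279 CPM in Control, 0.368 to 0.741 with the hairpins and 3.14 to 3.47 in Soft. Before TMM scaling, 3 counts in 1 library are 0.125 to 0.156 CPM. Soft was above all other libraries (log2 fold change 4.18 ± 0.38 SE, edgeR adjusted p = 5.15e-05), and the fold rests on 12 counts in Control in all. Its hairpin difference did not pass (adjusted p = 0.0459). CDKN1A (p21), the third CIP/KIP gene and not a member by the rule, was at 777, 773 and 744 CPM in Control, 5866, 3888 and 1117 with hairpins #1 to #3 and 342, 372 and 355 in Soft. The hairpins were all above Control but far apart, and the difference did not pass (adjusted p = 0.0122), and Soft was below Control in every library (adjusted p = 0.0684).

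The INK4 inhibitors bind CDK4 and CDK6, and all 4 were above Control in every Soft library, 2 of them past the threshold. CDKN2A was at 106, 108 and 107 CPM in Control, 99.8, 134 and 111 with the hairpins and 204, 203 and 208 in Soft, where it rose 1.91-fold (log2 fold change 0.94 ± 0.12 SE, edgeR adjusted p = 0.000246). The gene encodes both the INK4 protein p16 and, in another reading frame, ARF, and a gene count does not separate their transcripts. CDKN2C (p18) was at 29.4, 29.2 and 29.4 CPM in Control, 24.9, 23.2 and 17.4 with the hairpins and 56.1, 50.1 and 49.8 in Soft, where it rose (log2 fold change 0.83 ± 0.14 SE, edgeR adjusted p = 0.00108) while the hairpin libraries were all below Control (adjusted p = 0.0619). Soft exceeded sh_PIP4K2B for CDKN2A, CDKN2C and CDKN2D, by 0.84 ± 0.12, 1.25 ± 0.14 and 1.03 ± 0.20 on the log2 scale (adjusted p = 0.000476, 0.000146 and 0.00269).

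CDKN2B (p15), which lies near CDKN2A on chromosome 9 (chr9:22002903-22009305 and chr9:21967752-21995301, both on the minus strand), was at 29.2, 33.1 and 33.7 CPM in Control, 35.4, 151 and 38.4 with hairpins #1 to #3 and 76.5, 83.9 and 76.4 in Soft. Hairpin #2 alone was far above Control, with a 4.25-fold range between hairpins, and the other hairpins lay just above it. Neither comparison passed (adjusted p = 0.108 with the hairpins and 0.0484 in Soft). In the same hairpin #2 library CDKN2A was 134 CPM, the highest of the hairpins and still below every Soft library. CDKN2D (p19) was at 12.8, 12.9 and 11.8 CPM in Control, 11.9, 7.03 and 7.22 with the hairpins and 17.3, 19.5 and 16.5 in Soft, and neither comparison against Control passed (adjusted p = 0.105 and 0.0559).

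CDKN3, a phosphatase that removes the activating phosphate of CDK2, was at 20.3, 22.5 and 21.1 CPM in Control, 11.8, 14.98 and 11.3 with the hairpins and 27.8, 26.95 and 27.00 in Soft. It was below Control with every hairpin and above it in every Soft library. CDKN3 fell in sh_PIP4K2B (log2 fold change -0.75 ± 0.13 SE, edgeR adjusted p = 0.00565), the Soft difference did not pass (log2 fold change 0.36 ± 0.13 SE, edgeR adjusted p = 0.0419), and the difference between them was 1.10 ± 0.13 on the log2 scale (adjusted p = 0.000188).

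The 3 pocket proteins, which bind E2F factors until CDKs phosphorylate them, moved in different directions in Soft. RB1 was at 82.7, 87.6 and 92.6 CPM in Control, 172, 104 and 114 with hairpins #1 to #3 and 55.5, 54.1 and 53.6 in Soft. Control lay between the hairpins and Soft without overlap. RB1 fell in Soft (log2 fold change -0.69 ± 0.17 SE, edgeR adjusted p = 0.00981), and the hairpin difference did not pass (log2 fold change 0.57 ± 0.17 SE, edgeR adjusted p = 0.0501). The Soft call of RB1 was lost when any 1 Control or Soft library was left out and with either other scaling. It was also lost with at least 10 counts in every library and with a replicate block (adjusted p up to 0.0435), and was kept in 7 of 17 other settings. Soft was below sh_PIP4K2B (log2 fold change -1.26 ± 0.17 SE, edgeR adjusted p = 0.000458).

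RBL1 (p107), itself a known E2F target, is shown with the stretch before its start site (chr20:37095998-37096117, minus strand, 5′ to 3′), with a pair of E2F matches in capitals:
RBL1: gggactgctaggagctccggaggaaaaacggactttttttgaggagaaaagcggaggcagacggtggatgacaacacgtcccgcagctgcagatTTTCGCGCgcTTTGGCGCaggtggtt
RBL1 was at 26.9, 26.2 and 26.5 CPM in Control, 15.4, 13.2 and 14.4 with the hairpins and 15.2, 13.1 and 13.2 in Soft, and both conditions were below Control and overlapped each other. It fell in sh_PIP4K2B (log2 fold change -0.89 ± 0.11 SE, edgeR adjusted p = 0.00152) and in Soft (log2 fold change -0.94 ± 0.11 SE, edgeR adjusted p = 0.00019). RBL2 (p130), the pocket protein of quiescent cells, was at 30.3, 34.9 and 33.3 CPM in Control, 26.8, 45.4 and 29.4 with the hairpins and 56.8, 54.00 and 59.8 in Soft. Only Soft was separated from Control, and RBL2 rose there (log2 fold change 0.79 ± 0.18 SE, edgeR adjusted p = 0.00662), a call lost when any 1 Control or Soft library was left out (adjusted p up to 0.0319).

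**Figure D3:**
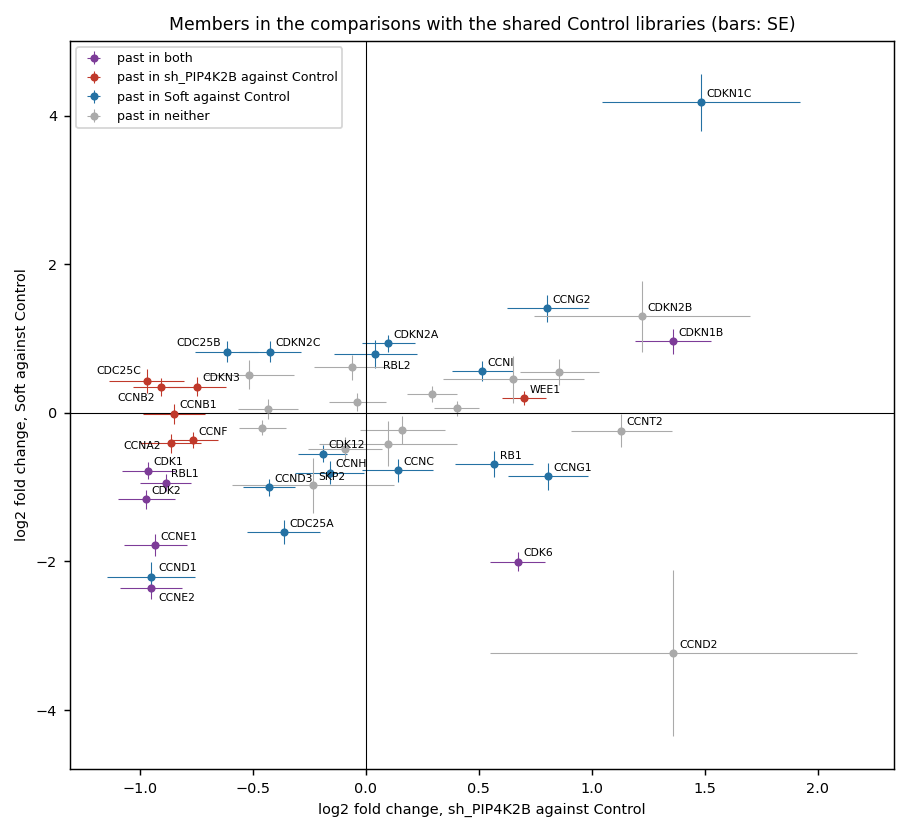
Log2 fold change of each member in sh_PIP4K2B (x axis) and in Soft (y axis) against the same 3 Control libraries, with bars of 1 SE, coloured by the comparisons in which edgeR's adjusted p was below 0.01 (the axes have different ranges, and Control is shared, so no measure of their relation is given). CDK6 lies to the right of and below 0, CDKN1B above 0 in both, and CCNE1, CCNE2, CDK2, CDK1 and RBL1 below 0 in both.

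Of the 11 cyclins and kinases of transcription and splicing none passed with the hairpins. Their median log2 fold change was 0.16 with the hairpins and -0.24 in Soft. In Soft 3 of the 11 fell and none rose, which is 27.3%, near the 30.6% of all genes that passed in Soft. CCNC, the cyclin of the Mediator kinase module, was at 40.2, 46.6 and 55.7 CPM in Control, 52.8, 43.2 and 61.3 with the hairpins and 29.05, 27.8 and 26.6 in Soft (log2 fold change -0.77 ± 0.16 SE, edgeR adjusted p = 0.00338). CCNH, part of the CDK-activating kinase with CDK7, was at 43.7, 44.99 and 41.99 CPM in Control, 35.5, 49.1 and 32.4 with the hairpins and 26.9, 24.95 and 23.1 in Soft (log2 fold change -0.80 ± 0.16 SE, edgeR adjusted p = 0.00259). CDK12, which phosphorylates RNA polymerase II during elongation, was at 82.8, 82.99 and 81.6 CPM in Control, 80.9, 72.98 and 62.8 with the hairpins and 54.2, 55.6 and 59.5 in Soft (log2 fold change -0.55 ± 0.11 SE, edgeR adjusted p = 0.00313). All 3 lay below Control in every Soft library, and each call was lost without 1 of several libraries: for CCNC without Control replicates 2 or 3 or any Soft library (adjusted p up to 0.019), for CCNH without Control replicates 1 or 2 or Soft replicates 2 or 3 (up to 0.016), and for CDK12 without any Control or Soft library (up to 0.0197).

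Among the other 8 of this group, CCNT2, a cyclin of the elongation kinase CDK9, came closest with the hairpins. It was at 23.1, 25.2 and 27.1 CPM in Control, 71.6, 35.1 and 58.4 with hairpins #1 to #3 and 21.9, 19.8 and 22.2 in Soft, above Control in every hairpin library (log2 fold change 1.13 ± 0.22 SE, edgeR adjusted p = 0.0102). Soft was below sh_PIP4K2B (log2 fold change -1.37 ± 0.22 SE, edgeR adjusted p = 0.00109). CCNL1, a cyclin linked to splicing, had log2 fold changes of 0.86 ± 0.17 with the hairpins and 0.55 ± 0.17 in Soft (adjusted p = 0.0112 and 0.0261). CCNL2 and CDK8 were split between hairpins, with 262, 141 and 87.6 CPM for CCNL2 and 23.7, 16.6 and 8.01 CPM for CDK8, ranges of 2.99-fold and 2.96-fold. CCNT1, CDK7, CDK9 and CDK13 had log2 fold changes between -0.09 and 0.40 with the hairpins and between -0.49 and 0.26 in Soft, all with an adjusted p above the threshold.

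The remaining members are cyclins with less settled roles and CDK5, a kinase best known from neurons. CCNG1 (cyclin G1), a target of p53, was at 78.7, 89.6 and 99.6 CPM in Control, 181, 172 and 116 with the hairpins and 55.4, 43.5 and 49.1 in Soft. The hairpins were above and Soft below Control in every library. It fell in Soft (log2 fold change -0.86 ± 0.18 SE, edgeR adjusted p = 0.00386), a call lost without Control replicates 2 or 3 or Soft replicates 2 or 3 (adjusted p up to 0.022), and the hairpin difference did not pass (log2 fold change 0.81 ± 0.18 SE, edgeR adjusted p = 0.0159). Between Soft and sh_PIP4K2B the log2 difference was -1.66 ± 0.18 (adjusted p = 0.000143).

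CCNG2 (cyclin G2), known from cells that leave the cycle, was at 12.6, 12.7 and 14.8 CPM in Control, 17.2, 28.5 and 24.4 with the hairpins and 38.8, 33.8 and 34.1 in Soft. The 3 conditions did not overlap, with Soft highest, and CCNG2 rose there 2.66-fold (log2 fold change 1.41 ± 0.18 SE, edgeR adjusted p = 0.000265). With the hairpins its difference did not pass (log2 fold change 0.80 ± 0.18 SE, edgeR adjusted p = 0.0163). CCNI (cyclin I), which lies near CCNG2 on chromosome 4 (chr4:77047155-77076309 and chr4:77157207-77433388), was at 133, 137 and 132 CPM in Control, 231, 186 and 159 with the hairpins and 198, 191 and 205 in Soft. It rose in Soft (log2 fold change 0.56 ± 0.14 SE, edgeR adjusted p = 0.00777). That call was lost when any 1 Control or Soft library was left out, with no count filter and with a replicate block (adjusted p up to 0.0355). It was kept in 9 of 17 other settings. CDK5 was at 21.1, 20.5 and 19.5 CPM in Control and 32.8, 30.4 and 30.5 in Soft, a difference that did not pass (adjusted p = 0.0146).

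Levels can be compared between genes only per length. On the scale of CPM per kilobase of the canonical transcript, CCND1 was the most abundant member in Control, at 561 ± 8.48 (SD, n = 3), followed by CDKN2A at 109.5 ± 0.964, CKS2 at 76.4 ± 2.44 and CDK4 at 69.8 ± 2.42. In Soft the order at the top changed, with CDKN2A at 209 ± 2.6 above CCND1 at 122 ± 7.95. The kinases of G1 were unequal in every condition. CDK4 was at 69.8 ± 2.42 in Control, 68.1 ± 11.8 with the hairpins and 77.4 ± 0.682 in Soft, whereas CDK6 was at 10.4 ± 0.873, 16.6 ± 2.4 and 2.59 ± 0.0352. Among the inhibitors CDKN1B was at 16.5 ± 1.24 in Control, 42.4 ± 10.9 with the hairpins and 32.3 ± 1.00 in Soft, so that its hairpin and Soft levels overlapped. The cyclin E genes, at 9.17 ± 0.159 for CCNE1 and 9.71 ± 1.42 for CCNE2 in Control, did not differ beyond their spread. CCND2 and CDKN1C were the lowest members in Control, at 0.229 ± 0.0175 and 0.102 ± 0.0542.

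Soft and sh_PIP4K2B were compared with each other to test where they differed. Past the threshold were 24 of the 45 members, against 30% of all genes, of which 11 were higher in Soft (14.5% of all genes) and 13 lower (15.5%). Higher in Soft were the mitotic CCNB1 and CCNB2, CDC25B and CDC25C, CDKN1C and 3 of the 4 INK4 genes, CDKN3, RBL2 and CDK5. Lower in Soft were CCND1, CCND2, CCND3 and CDK6 of the G1 group, CCNE1 and CCNE2, CDC25A, WEE1, RB1, CCNC, CCNH, CCNT2 and CCNG1. The members that fell in both comparisons with Control were CCNE1, CCNE2, CDK2, CDK1 and RBL1, of which CDK2, CDK1 and RBL1 had log2 differences between Soft and sh_PIP4K2B of -0.19 ± 0.13, 0.19 ± 0.12 and -0.05 ± 0.11, none past the threshold. Limma voom with a weight per condition called 15 of the 45, all among these 24, beside 18.6% of all genes. Leaving out Soft replicate 1 or 2 ended the calls of CCND2, CCND3, WEE1, CDKN2D, RBL2, CCNH and CDK5, Soft replicate 3 the same calls except CDKN2D, any Control replicate those of CCND2, RBL2, CCNH and CDK5, hairpin #1 that of RBL2, hairpin #2 that of CCND2 and hairpin #3 both of these (adjusted p up to 0.0404).

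Markers of proliferation that are no members were also examined, and most fell in each comparison against Control. Of MKI67, PCNA, TOP2A and the 6 MCM helicase genes MCM2 to MCM7, 8 of 9 fell with the hairpins and 6 of 9 fell in Soft, beside 2.77% and 14.8% of all genes, with median log2 fold changes of -0.79 and -0.50. Their summed level was 1523 to 1534 CPM in Control, 819, 1077 and 866 with hairpins #1 to #3 and 1168 to 1214 in Soft, so that the hairpins and Soft were below Control in every library. MKI67 had the lowest log2 fold change with the hairpins, -1.09 ± 0.15 (adjusted p = 0.00244), and MCM7 the one nearest to 0 among those that fell, -0.58 ± 0.10 (adjusted p = 0.00521). In Soft the largest fall was that of PCNA, -0.89 ± 0.22 (adjusted p = 0.00894), and the smallest that of MCM5, -0.48 ± 0.09 (adjusted p = 0.00272). With the hairpins PCNA did not pass (0.15 ± 0.22, adjusted p = 0.679). MKI67, TOP2A and MCM7 did not pass in Soft (-0.30 ± 0.15, 0.12 ± 0.13 and -0.13 ± 0.10, adjusted p = 0.129, 0.474 and 0.291). Their part in the members' differences was not tested.

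The E2F, DREAM and MuvB genes, which control the transcription of many members, numbered 17, all tested. With the hairpins 5 fell and 1 rose (median log2 fold change -0.13), and in Soft 2 fell and 1 rose (median -0.48). That is 35.3% of the list with the hairpins, against 5.54% of all genes, and 17.6% in Soft, below the 30.6% of all genes. Among those that passed, MYBL2, the B-MYB subunit that joins MuvB for mitotic transcription, had the lowest log2 fold change with the hairpins, -1.17 ± 0.10 (adjusted p = 0.000425), and E2F6, a repressive E2F, the highest, 0.80 ± 0.15 (adjusted p = 0.00939). In Soft E2F1, an activating E2F, was, of those that passed, lowest at -1.02 ± 0.12 (adjusted p = 0.000152), and TFDP2, an E2F partner, highest at 0.78 ± 0.13 (adjusted p = 0.001).

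The list for the ubiquitin ligases that destroy cyclins and CDK inhibitors held 30 genes. It took in E2 enzymes and an inhibitor of a ligase too, so a gene that fell need not be a ligase subunit. With the hairpins 4 fell and 2 rose (median log2 fold change -0.03), and in Soft 8 fell and 1 rose (median -0.22). That is 20% of the list with the hairpins, against 5.54% of all genes, and 30% in Soft, near the 30.6% of all genes. DTL, the substrate receptor of a CUL4 ligase, fell in both, with log2 fold changes of -1.05 ± 0.10 for the hairpins (adjusted p = 0.000681) and -1.56 ± 0.10 in Soft (adjusted p = 1.15e-05). FBXW7, which targets cyclin E, rose with the hairpins (0.97 ± 0.11, adjusted p = 0.00119) and was at -0.44 ± 0.12 in Soft (adjusted p = 0.012). ANAPC16, a subunit of the anaphase-promoting complex, rose in both (0.49 ± 0.09 with the hairpins and 0.57 ± 0.09 in Soft, adjusted p = 0.00881 and 0.00109).

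Of 32 further cyclin and CDK family genes 26 had enough counts to be tested. With the hairpins 1 fell and none rose, and in Soft 4 fell and 4 rose. These are 3.85% and 30.8% of those tested, near the 5.54% and 30.6% of all genes. The gene that fell with the hairpins was PKMYT1, the membrane-bound kinase that like WEE1 inhibits CDK1 (-0.98 ± 0.13, adjusted p = 0.00183), and it fell in Soft too (-0.83 ± 0.13, adjusted p = 0.000869). In Soft CDK3 was highest at 2.73 ± 0.25 (adjusted p = 5.15e-05) and CCNYL1 lowest at -1.33 ± 0.20 (adjusted p = 0.000713). The level of CDK3 was low, at 0.699 to 0.702 CPM in Control and 4.42 to 5.10 CPM in Soft. The median log2 fold change of this list was 0.20 with the hairpins and -0.07 in Soft, beside 0.05 and 0.01 over all genes.

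**Figure D4:**
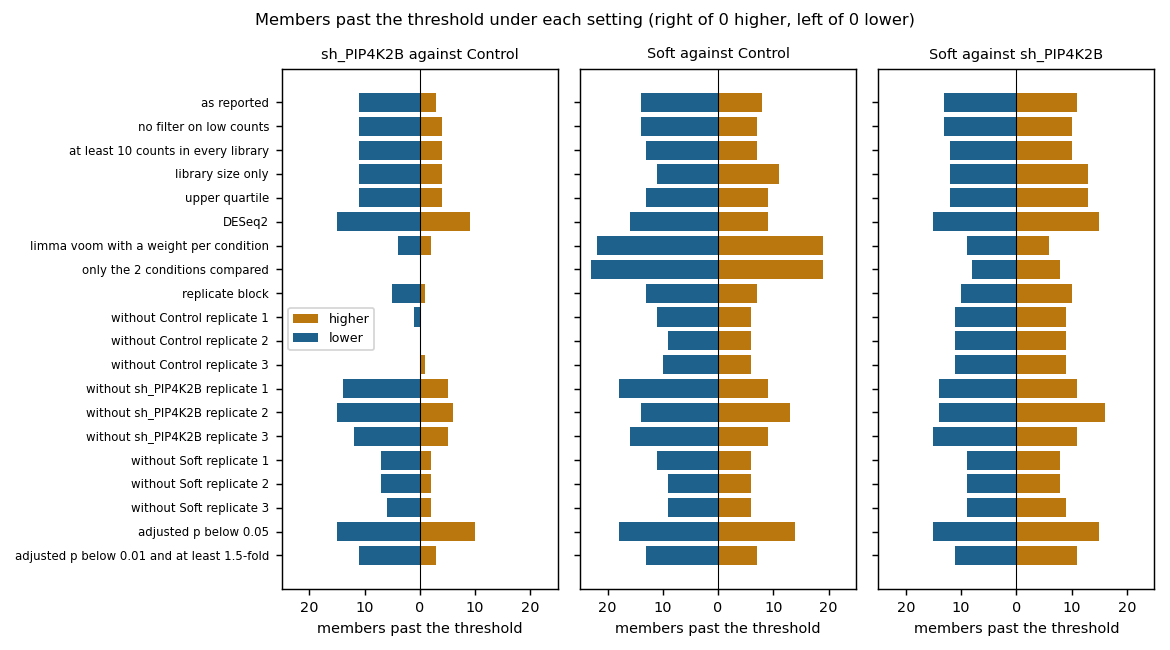
Number of members past the threshold (x axis, higher to the right of 0 and lower to the left) under each way of processing (y axis), in a panel for each of the comparisons sh_PIP4K2B to Control, Soft to Control and Soft to sh_PIP4K2B. The hairpin count runs from 0 without Control replicate 2 to 25 at an adjusted p below 0.05, while the Soft count stays at 15 or more in every setting drawn. Over the same settings 0.0375% to 17.2% of all genes passed with the hairpins and 17.9% to 70.7% in Soft.

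The plot of calls by setting shows how far each count rested on single libraries. Of the 22 Soft calls, those of CCND1, CCND3, CDK6, CCNE1, CCNE2, CDK2, CDK1, CDC25A, CDC25B, CDKN1B, CDKN2A, CDKN2C, RBL1 and CCNG2 passed in each of 17 other settings at the same threshold, and that of CDKN1C in each of the 16 that tested it. Of the 14 hairpin calls, CDKN1B was kept in 14 of 17 settings, CDK1 and CDK2 in 13, and CDK6, CCNA2, CDC25C and CDKN3 in 8.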

How the data were processed

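RNA of 9 libraries of hTERT_RPE1 cells was analysed, 3 each for Control, sh_PIP4K2B (1 per hairpin) and Soft. The authors prepared stranded mRNA libraries, sequenced paired reads of 75 nt and aligned them to GRCh38/hg38 with STAR 2.6.1d. They deposited 1 table of estimated counts with a column per library and no normalisation. The labels also list Salmon without a role, and the annotation and the use of strand in counting are not given in the sources used here. Values that were not whole numbers, 12.3% of all, were rounded, and CPM values are TMM-scaled.

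All 9 libraries were fitted together with edgeR 4.0.16 in R 4.3.3 (filterByExpr, TMM, quasi-likelihood F test, Benjamini-Hochberg over 13784 genes, threshold 0.01). The SE is the absolute log2 fold change over the square root of F. The 45 members and the gene lists were chosen with earlier results of these data known, and lists are described by counts and medians without a set test. Members past the threshold against Control were given in every library, PIP4K2B and CDKN1A always, and from each list the genes with the highest and the lowest log2 fold change past the threshold. Proliferation markers that did not pass were named too. The fit was checked on simulated counts with 200 genes changed 2-fold in sh_PIP4K2B. At the spread of the 9 libraries edgeR recovered 47 of them with 0 false calls, DESeq2 143 with 21 and limma voom 46 with 0. At the spread of the Control and Soft libraries edgeR recovered 191 with 3 false calls. Neither simulation gave the hairpin libraries a wider spread than the other libraries, as the data have. Gene lengths, shared 75-base stretches and overlaps on the opposite strand come from GENCODE on GRCh38, and promoters from RefSeq. For 6 members (CCND1, CCND2, CCNE2, CDK2, CDKN1C and WEE1) no promoter sequence was used. Alternatives were no count filter, at least 10 counts in every library, library size or upper quartile scaling, DESeq2 1.42.0, limma 3.58.1 voom with a weight per condition, a fit restricted to 2 conditions, a replicate block, the omission of 1 library at a time and 2 other thresholds. Totals of 19217336 to 24020796 counts put 3 counts at 0.125 to 0.156 CPM before TMM scaling, which covers counting error only. Pigment epithelium markers were RPE65, BEST1, RLBP1, LRAT, RDH5, TYR, TYRP1, DCT, PMEL, MITF, OTX2, SERPINF1, TTR, KRT8 and KRT18.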

Additional observations from a re-analysis of the deposited data

Results flagged for a closer look

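For 13 members the log2 fold changes against Control had opposite signs in Soft and sh_PIP4K2B, and the difference itself passed the threshold in edgeR's test of Soft against sh_PIP4K2B. Of these, 9 also passed against Control in at least 1 of the conditions and 4 in neither. How many of all genes meet this rule was not counted, so the 13 cannot be read as particular to the members. The test of Soft against sh_PIP4K2B alone was passed by 30% of all genes. CDK6 differed by -2.68 on the log2 scale (Soft minus sh_PIP4K2B, adjusted p = 3.32e-06), and was the 1 member of the 13 with both sides past the threshold against Control. Its hairpin side passed in 8 of 17 other settings. Among the other 8 that passed against Control, below sh_PIP4K2B in Soft were CCNG1 at -1.66, RB1 at -1.26 and CCNC at -0.92 (adjusted p = 0.000143, 0.000458 and 0.00147). Above it were CDC25B at 1.44, CDC25C at 1.40, CCNB2 at 1.26, CDKN2C at 1.25 and CDKN3 at 1.10 (adjusted p = 8.28e-05, 0.000205, 8.53e-05, 0.000146 and 0.000188). The 4 that passed in neither were CCND2 at -4.60, CCNT2 at -1.37, CDKN2D at 1.03 and CDK5 at 0.67 (adjusted p = 0.00693, 0.00109, 0.00269 and 0.00981). CCND2 lay below Control with hairpin #1 and above it with the other 2, and CDK5, at -0.06 ± 0.17 with the hairpins, was above 0 there when scaled by library size alone or without hairpin #3. The sh_PIP4K2B libraries of CCNC overlapped Control, and its opposite direction there rests on a log2 fold change of 0.14 ± 0.16. The difference passed in 16 of 17 other settings for CDC25C and for CCNC, which limma voom did not call, in all 17 for the other 7 of those 9 and for CCNT2, in 13 of 17 for CDKN2D, in 7 of 17 for CDK5 and in 6 of 15 for CCND2. Groups of 3 libraries are too small for a test of single outlying libraries.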

How the results depend on the processing

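As reported, 14 members passed with the hairpins, 22 in Soft and 24 between Soft and sh_PIP4K2B (5.54%, 30.6% and 30% of all genes). The hairpin count was 24 with DESeq2 (15% of all genes) and 6 with limma voom (2.31% of all genes). It was 0 with only the 2 conditions compared (0.0375% of all genes), with 27 members at an unadjusted p below 0.05. At an adjusted p below 0.05 it was 25 (17.2% of all genes). With either count filter or either scaling it was 15 (3.57% to 6.51% of all genes). Leaving out 1 library at a time gave 0 to 21 (0.471% to 14.4% of all genes). The lowest values, 1, 0 and 1, came without Control replicates 1, 2 and 3. The adjusted p of the 14 then lay between 0.00752 and 0.0495. In Soft the count was 41 with limma voom (with 70% of all genes) and 42 with only the 2 conditions (70.7% of all genes). With 1 library left out it was 15 to 27 (17.9% to 45.6% of all genes). Between Soft and sh_PIP4K2B it was 15 with limma voom (18.6% of all genes) and 17 to 30 with 1 library left out (16.8% to 38.4%). No member that passed as reported changed direction. Among members that had not passed, the sign changed in at least 1 setting for 8 with the hairpins (CDK4, CDK5, CDK7, CDK8, RBL2, SKP2, CCNT1 and CDKN2A), 1 in Soft (CCNB1) and 5 between Soft and sh_PIP4K2B (RBL1, CDK9, CDKN2B, CCNL2 and CCNI), none of which passed with the changed sign. The cause of the differences between settings was not tested. With the replicate number as a block 6, 20 and 20 members passed, beside 2.14%, 25.7% and 24.4% of all genes. Libraries of the same number did not deviate together (9 correlations of deviations from -0.10 to 0.04, and the highest correlation was with the own number in 6 of 18 cases). In sh_PIP4K2B the number is also the hairpin, and a condition has only 3 libraries, so this check cannot exclude a pairing. Library size scaling lost CCNC, RB1 and CDK12 in Soft. Depth limits CDKN1C, with 2 to 6 counts in the Control libraries, and CCND2, with 2 to 5 in Soft.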

Other observations

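Of the 15 markers of pigment epithelium 7 had enough counts to be tested, and they did not share a direction. With the hairpins OTX2, a transcription factor, rose (0.65 ± 0.12 on the log2 scale, edgeR adjusted p = 0.00912), while RDH5, a retinol dehydrogenase, and KRT18, an epithelial keratin, fell (-2.26 ± 0.27 and -1.10 ± 0.15, adjusted p = 0.00121 and 0.00182). In Soft OTX2 rose too (1.77 ± 0.13, adjusted p = 1.39e-05) and BEST1, a channel of pigment epithelium, rose at a low level, from 0.0466 to 0.307 CPM in Control to 0.667 to 0.775 CPM (2.23 ± 0.53, adjusted p = 0.00759). KRT18 and KRT8 fell there (-1.31 ± 0.15 and -0.98 ± 0.20, adjusted p = 0.000138 and 0.0033).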
